A study of Mus musculus with 6 samples.

Results

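The genes described here are 40 cyclins, cyclin-dependent kinases (CDKs) and mitosis genes, chosen by name from knowledge of the cell cycle. Earlier results of these data were known when they were chosen. They were found by their Ensembl identifiers among the 55774 genes of the expression table. Of these, 37 passed a filter on low values, which kept 11924 genes that reached 1 FPKM (fragments per kilobase of transcript and 1000000 fragments) in 3 or more libraries. The 6 sequenced libraries were pools of 10 mouse blastocysts each, 3 grown with oEV-EMT and 3 with oEV-ctrl. Both names stand for oviductal extracellular vesicles, the membrane-bound particles that cells release, isolated from human Fallopian tubes. The oEV-EMT came from women with endometriosis. The oEV-ctrl came from women with uterine fibroids according to the sample labels, whereas the methods of the study name another gynaecological condition.

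In both groups the embryos were wild type (labelled WT), were taken at the 2-cell stage, according to the labels, from ICR dams of 6 to 8 weeks, and were cultured for 75 hours in CZB, a medium for mouse embryos. As far as the labels state, the groups differed in the donors of the vesicles alone, and a vesicle-free group was not analysed here. The number of donors behind each library was not given in the sources used here, and the methods speak of replicates and of repeated experiments without tying each pool to its own culture, so p-values measure the spread between these pools, which may be technical. A pool holds trophectoderm, epiblast and primitive endoderm cells, and fewer cells of a type cannot be told apart from less RNA per cell.

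The cell cycle turns on kinases that need a cyclin partner. D-type cyclins with *Cdk4* or *Cdk6* work in G1, cyclins E and A with *Cdk2* start and sustain DNA replication, and cyclins A and B with *Cdk1* drive entry into mitosis. Polo and Aurora kinases build the spindle, the checkpoint proteins hold anaphase back until chromosomes are attached, and the anaphase-promoting complex (APC/C) then has cyclin B and securin destroyed. The trophectoderm and inner cell mass of the blastocyst proliferate while they specialise. Many mitotic genes are switched on late in the cycle through a short promoter element, the cell cycle genes homology region (CHR), which the DREAM and MuvB complexes bind, and through CCAAT boxes, which the factor NF-Y binds. E2F factors act through their own sites on many genes of G1 and S phase.

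Promoters are shown for 6 of the genes on which the results below turn, 4 of them mitotic and 2 of G1, as examples with and without the motifs named above. Each sequence is from RefSeq on GRCm38.p6, spans 300 bases from 250 before the gene start to 50 after it, and reads 5′ to 3′ on the strand of the gene. Capitals mark matches on either strand to the CHR (TTTGAA or TTCGAA), the CCAAT box (CCAAT) or an E2F-type site (TTTNNCGC). The windows are chr10:69352863-69353162 (minus strand) for *Cdk1*, the kinase of mitotic entry, chr2:172370521-172370820 (minus) for *Aurka*, Aurora kinase A, chr11:99024140-99024439 (minus) for *Top2a*, topoisomerase II alpha, chr2:164769679-164769978 (plus) for *Ube2c*, a ubiquitin-conjugating enzyme of the APC/C, chr17:47504801-47505100 (plus) for *Ccnd3*, cyclin D3, and chr10:127063285-127063584 (plus) for *Cdk4*, its kinase partner.
Cdk1: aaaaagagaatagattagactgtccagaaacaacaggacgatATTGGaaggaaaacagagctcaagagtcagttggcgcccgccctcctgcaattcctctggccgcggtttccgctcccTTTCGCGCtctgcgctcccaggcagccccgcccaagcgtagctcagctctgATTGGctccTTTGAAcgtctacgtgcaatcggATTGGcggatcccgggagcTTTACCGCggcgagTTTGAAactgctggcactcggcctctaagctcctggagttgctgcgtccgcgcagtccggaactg
Aurka: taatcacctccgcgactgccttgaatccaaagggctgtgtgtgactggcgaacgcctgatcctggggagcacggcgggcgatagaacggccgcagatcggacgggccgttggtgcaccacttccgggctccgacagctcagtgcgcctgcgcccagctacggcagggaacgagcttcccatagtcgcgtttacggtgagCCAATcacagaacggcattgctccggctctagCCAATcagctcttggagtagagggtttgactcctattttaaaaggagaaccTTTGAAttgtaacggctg
Top2a: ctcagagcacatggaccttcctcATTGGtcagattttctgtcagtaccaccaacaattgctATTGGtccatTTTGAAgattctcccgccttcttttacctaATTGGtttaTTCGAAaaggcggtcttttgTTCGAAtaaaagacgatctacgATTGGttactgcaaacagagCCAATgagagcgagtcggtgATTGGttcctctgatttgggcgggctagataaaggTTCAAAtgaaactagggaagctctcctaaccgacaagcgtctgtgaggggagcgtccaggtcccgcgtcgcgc
Ube2c: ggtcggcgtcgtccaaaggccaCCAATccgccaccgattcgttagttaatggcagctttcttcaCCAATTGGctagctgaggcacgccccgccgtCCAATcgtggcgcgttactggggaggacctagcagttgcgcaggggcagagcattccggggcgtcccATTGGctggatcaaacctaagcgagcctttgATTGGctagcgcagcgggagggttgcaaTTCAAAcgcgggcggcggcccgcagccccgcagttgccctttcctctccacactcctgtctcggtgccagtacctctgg
Ccnd3: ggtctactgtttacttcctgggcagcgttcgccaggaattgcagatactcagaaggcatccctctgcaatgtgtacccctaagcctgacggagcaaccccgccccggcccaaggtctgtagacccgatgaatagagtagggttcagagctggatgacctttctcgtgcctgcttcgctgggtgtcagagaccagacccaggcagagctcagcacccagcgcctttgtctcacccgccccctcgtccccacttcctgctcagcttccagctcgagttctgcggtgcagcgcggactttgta
Cdk4: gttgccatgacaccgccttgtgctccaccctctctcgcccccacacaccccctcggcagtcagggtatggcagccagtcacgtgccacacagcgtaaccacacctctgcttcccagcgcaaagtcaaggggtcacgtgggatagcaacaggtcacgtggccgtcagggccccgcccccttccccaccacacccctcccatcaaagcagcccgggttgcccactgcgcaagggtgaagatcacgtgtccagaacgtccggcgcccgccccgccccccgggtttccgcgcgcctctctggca

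The promoters of *Cdk1*, *Aurka*, *Top2a* and *Ube2c* each held a CHR and at least 1 CCAAT box, and those of *Ccnd3* and *Cdk4* held no match to any of the 3 motifs. Promoters were matched for 31 of the 40 genes. A CHR was found in 18 of the 31 (58.1%), against 19.4% of all 27025 RefSeq promoters of the same length and 14.5% of the 7911 promoters of tested genes. A CCAAT box was found in 24 (77.4%), against 37.9% of all promoters and 40.2% of those of tested genes. The E2F-type site was found in 6 (19.4%), against 5.27% and 9.28%. All 18 promoters with a CHR also held a CCAAT box, a combination present in 7.70% of all promoters and 6.50% of those of tested genes.

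By phase, the counts were uneven. Of the 23 promoters of genes of mitotic entry, chromosome structure, the spindle, the checkpoint and anaphase, 18 held a CHR and 21 a CCAAT box. Of the 8 promoters of G1 and S phase genes and CDK inhibitors, 0 held a CHR and 3 a CCAAT box. In *Cdca8* a CHR and a CCAAT box shared letters, and in *Ube2c* a pair of CCAAT boxes on opposite strands did. A match is a description of letters in this window and does not show that a factor binds there.

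**Figure D1:**
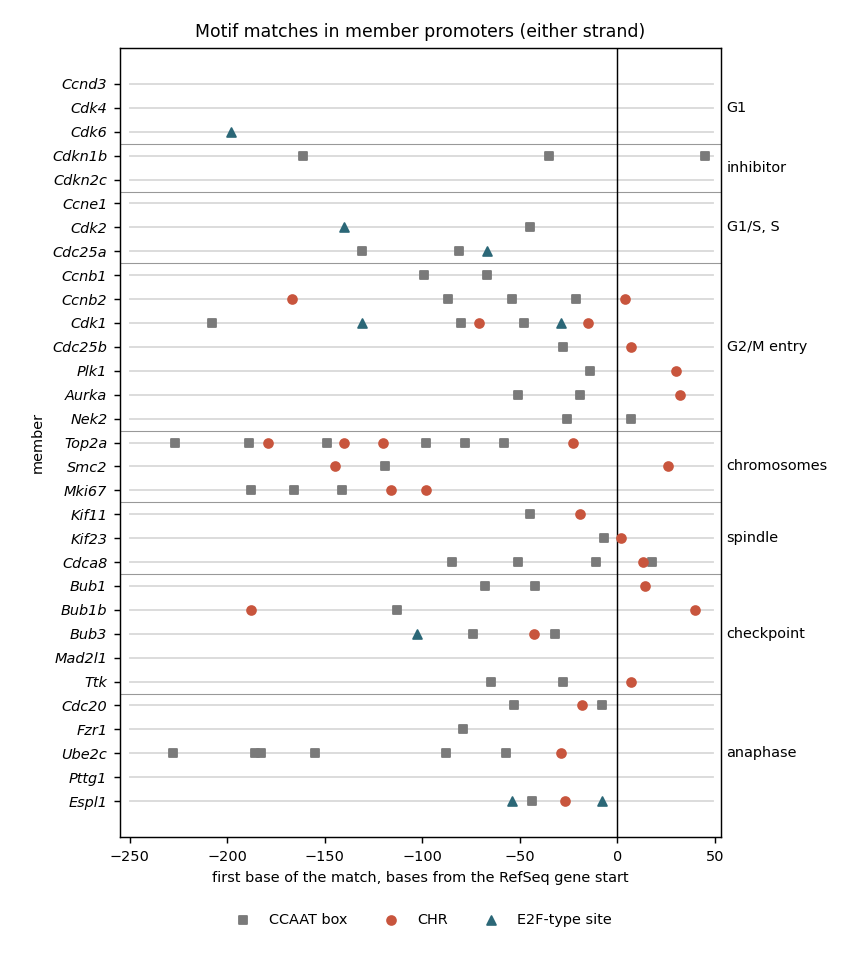
Positions of CCAAT boxes (squares), CHR (circles) and E2F-type sites (triangles) in the promoters of 31 genes, with the distance of the first base of each match from the RefSeq gene start in bases on the x axis and genes grouped by phase on the y axis. CHR matches lie in 18 of the 23 mitotic promoters and in 0 of the 8 promoters of G1 and S phase genes and inhibitors.

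The libraries were compared before the genes. The values summed to between 1293175 and 1551567 per library, and a single unannotated transcript, new_gene48, took 15.3% to 19.0% of the sum in the oEV-EMT libraries and 19.7% to 31.5% in the oEV-ctrl libraries. This share is of summed FPKM, which are per length, and is no share of fragments. The library with the largest share, oEV-ctrl 1, also had the largest sum, 1551567. How far this transcript moved the values of other genes, and its part in the results, were not tested. The most frequent ratio of low values between each library and oEV-EMT 1 was read as relative depth. It differed up to 2.07-fold, with oEV-EMT 1 the deepest and oEV-ctrl 1 the shallowest. Only 25 to 43 of the 6457 to 8036 genes compared held that ratio, so these depths are estimates. Read totals are not known, so no counting interval is given. Trophectoderm markers (10 of 10 tested) summed to 3203 to 4782 FPKM in oEV-EMT and 3129 to 4883 in oEV-ctrl, epiblast and inner cell mass markers (8 of 8) to 123 to 231 and 134 to 233, and primitive endoderm markers (7 of 7) to 135 to 263 and 181 to 237. These sums rest on a few abundant genes. By gene, as deposited, values were higher in oEV-EMT without overlap in 0 of 10 trophectoderm markers. They were so in 3 of 8 epiblast and inner cell mass markers and in 2 of 7 primitive endoderm markers, and none of these markers was lower. Over all tested genes the shares without overlap were 18.1% higher and 4.34% lower. *Nanog* (log2 fold change 1.11 ± 0.33), *Pou5f1* (0.97 ± 0.28), *Fgf4* (0.99 ± 0.32) and *Gata4* (0.82 ± 0.23) kept their groups apart after median-of-ratios scaling, and *Sox7* (0.52 ± 0.25) did not. The smallest adjusted p-value of these 5 was 0.174 as deposited (limma). With this scaling 1 primitive endoderm marker, *Gata6* (-0.38), was lower in oEV-EMT without overlap. The shares of all tested genes were then 9.85% higher and 10.3% lower. Other markers of the same lists had, as deposited, negative fold changes with overlapping groups, such as *Zfp42* (-0.71 ± 0.66), *Sox2* (-0.32 ± 0.29) and *Dab2* (-0.26 ± 0.27). The part of these markers in the results on cell cycle genes was not tested. Of the oocyte markers, 2 of 8 were tested, with sums of 3.89 to 6.93 in oEV-EMT and 2.38 to 3.34 in oEV-ctrl, and *Oosp1* was at 0, and *Zp3* was higher in oEV-EMT without overlap (0.79 ± 0.23). Markers of cumulus cells (0 of 7 tested, with *Cyp19a1*, *Fshr*, *Amh* and *Ptx3* at 0), blood (1 of 5, with *Hbb-bt*, *Hbb-bs* and *Ptprc* at 0) and oviduct epithelium (0 of 3, with *Foxj1* at 0) summed to at most 4.41 FPKM in any library.

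Most cell cycle genes were well expressed in these blastocysts. *Pttg1*, the securin that guards separase, had the highest mean over the 6 libraries, 483 FPKM, above 97.4% of the tested genes. *Ube2c* (249 FPKM), *Aurka* (173), *Cdk4* (151), *Ccnb1* (143), *Cdca8* (140), *Ccnb2* (122) and *Cdc20* (114) followed, all above 90.5% of the tested genes. At the other end stood *Ccnd1* (1.16), *Cdk6* (1.21), *Espl1* (1.61) and *Cdc25a* (1.93). FPKM are per length, so these levels can be set side by side. Genes that share sequence with other genes, such as *Cdk4* and *Ccnd1*, are an exception, as described below. The 3 genes below the filter were *Ccnd2*, cyclin D2, at 0 to 0.571 FPKM and listed at 0 in oEV-ctrl 1, *Cdkn1b*, which encodes the CDK inhibitor p27, at 0.453 to 1.10, and *Cdc25b*, a phosphatase that activates CDKs, at 0.291 to 1.12. In all 3 the groups overlapped, and no fold change is given.

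No cell cycle gene passed the thresholds of the study (limma on log2(FPKM + 1), Benjamini-Hochberg over 11924 genes). These ask for an adjusted p-value of 0.05 or less and a log2 fold change of 1 or more in either direction. The study applied them with a different test, DESeq2, and reported genes past them, so the counts here are not its own. The adjusted p-values of the 37 genes lay between 0.164 and 0.992. Over all tested genes 0 passed as well (0.0%), with a smallest adjusted p-value of 0.0934. With an unadjusted p of at most 0.05, limma gave 11 genes higher and 0 lower in oEV-EMT, where 12.8% of all tested genes were higher and 2.55% lower. In 11 genes, too, each of the 3 oEV-EMT values exceeded every oEV-ctrl value, against 18.1% of all tested genes, and in 0 they lay below, against 4.34%. The count with p at most 0.05 before adjustment was 4 without oEV-EMT 2 or without oEV-ctrl 2, 5 without oEV-ctrl 1 and 6 without oEV-ctrl 3, where 9.31%, 8.15%, 7.88% and 12.5% of all tested genes were higher. As deposited, the lists of 11 shared 9 genes. The first alone held *Ccne1* and *Pttg1*, and the second alone held *Kif11* and *Bub1*.

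The direction leaned the same way over the whole table, so each gene is also given relative to it. The median log2 fold change of all tested genes was 0.17, and 70.1% of them had a fold change above 0, against 29 of the 37 cell cycle genes (78.4%). After median-of-ratios scaling, which sets the typical gene equal between libraries, the median of all tested genes was 0.0099, and 51.3% of all genes and 25 of the 37 (67.6%) were above 0. The count of cell cycle genes above the median of all genes was 25 of 37 under either scaling. With this scaling, the unadjusted p-value was at most 0.05 in 3 genes higher in oEV-EMT (*Ccnd1*, *Ccnd3* and *Aurka*) and in 1 lower (*Cdk1*), where 6.43% and 6.4% of all tested genes stood. The groups did not overlap in 6 genes higher (*Ccnd1*, *Ccnd3*, *Cdk4*, *Cdk2*, *Aurka* and *Aurkb*), against 9.85% of all tested genes. They did not overlap in 5 lower (*Cdkn2c*, *Cdk1*, *Top2a*, *Smc2* and *Mki67*), against 10.3%.

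**Figure D2:**
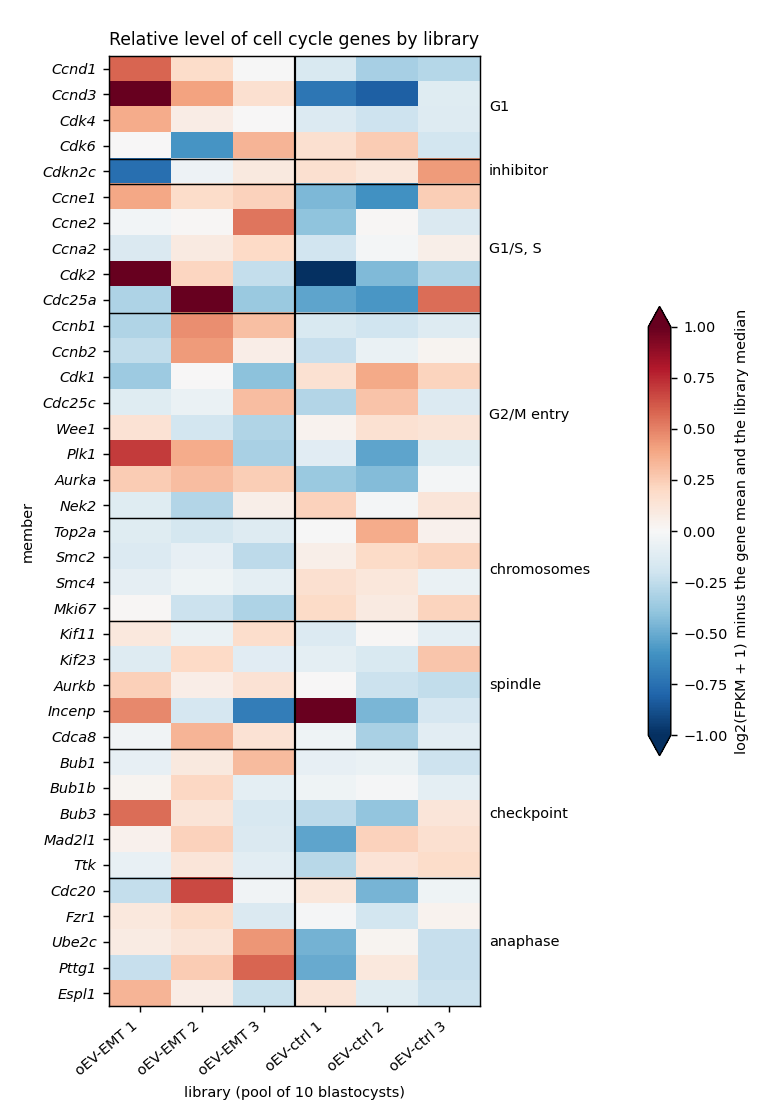
Log2(FPKM + 1) of the 37 tested genes in each library, minus the mean of the gene and the median of the library (colour, log2 units, capped at 1 in either direction), with libraries on the x axis and genes by phase on the y axis. *Ccnd1*, *Ccnd3* and *Aurka* are at or above their mean in most oEV-EMT libraries and at or below it in the oEV-ctrl libraries, and the 4 chromosome structure and proliferation genes show the opposite tendency.

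**Figure D3:**
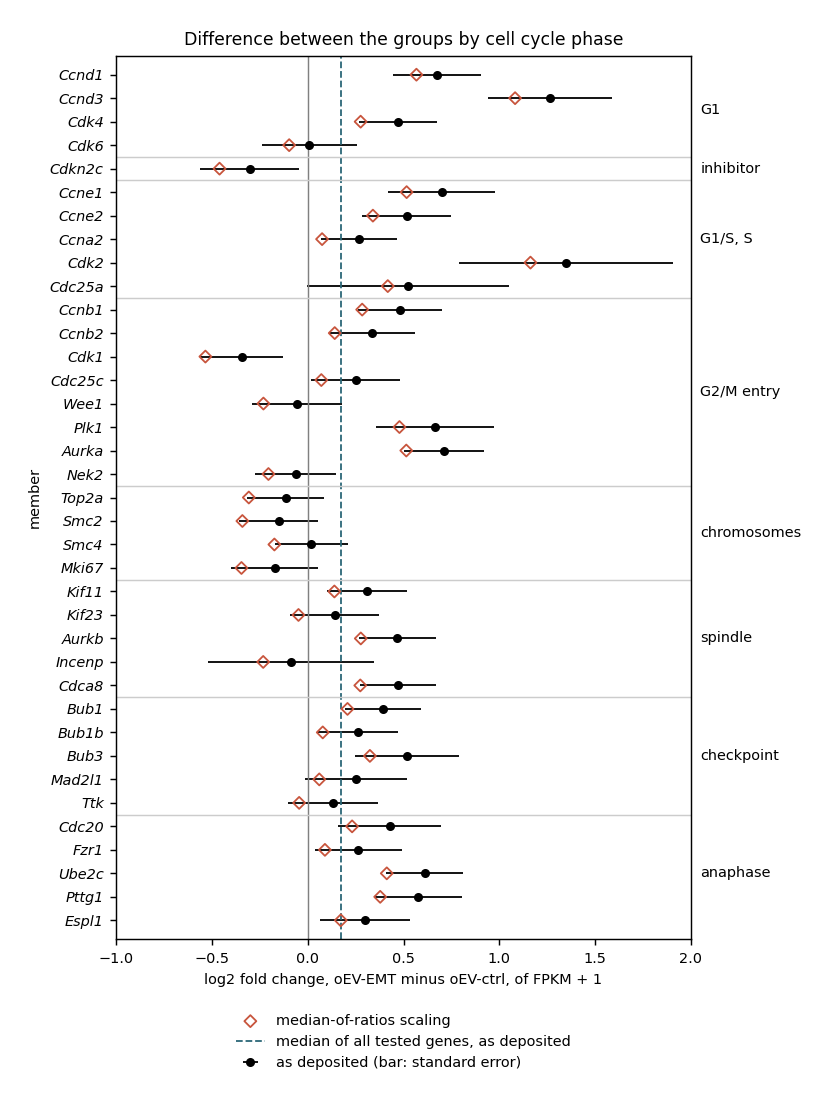
Log2 fold change of FPKM + 1, oEV-EMT minus oEV-ctrl, of the 37 tested genes by phase, with filled circles and standard errors for the values as deposited and open diamonds for median-of-ratios scaling. The dashed line is the median of all tested genes (0.17), and the genes with the largest fold changes are *Cdk2* (1.35) and *Ccnd3* (1.26).

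The G1 genes lay on the higher side. Of the 5, 4 were tested, 3 of these had higher values in oEV-EMT without overlap, and their median log2 fold change was 0.40 above that of all genes. *Ccnd3*, cyclin D3 (chr17:47505051-47599691, plus strand), had 30.5, 17.8 and 13.7 FPKM in oEV-EMT and 6.39, 5.95 and 11.3 in oEV-ctrl, a mean of 20.7 ± 8.76 against 7.87 ± 2.96 (SD, n = 3). Library oEV-EMT 1 stood highest and the lowest oEV-EMT value was close to the highest oEV-ctrl value. The log2 fold change was 1.26 ± 0.33 (SE) with an adjusted p-value of 0.164 (limma), the smallest among the cell cycle genes, and it ranged from 0.96 without oEV-EMT 1 to 1.52 without oEV-ctrl 3. *Cdk4*, the most abundant kinase of G1 (chr10:127063534-127067920, plus strand), had 215, 167 and 147 FPKM in oEV-EMT and 123, 117 and 136 in oEV-ctrl. Its 6 values did not overlap between the groups, and the log2 fold change was 0.47 ± 0.20 (adjusted p = 0.307, limma). *Ccnd1*, cyclin D1 (chr7:144929931-144939925, minus strand), was near the lower limit of the filter, with 2.48, 1.53 and 1.04 FPKM in oEV-EMT and 0.710, 0.515 and 0.705 in oEV-ctrl. The groups did not overlap, and the log2 fold change was 0.67 ± 0.23 (adjusted p = 0.222, limma). *Cdk6*, the other partner of D-type cyclins, ranged from 0.548 to 1.74 FPKM with overlapping groups and a log2 fold change of 0.01 ± 0.25, which turned to -0.10 after median-of-ratios scaling.

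Exons of neighbours limit what can be said of these cyclins. *Ccnd1* shares 23.4% of its exon bases with LTO1 on the opposite strand, and *Cdk4* shares 19.7% with *Tspan31*. Whether the libraries kept the strand was not given in the sources used here, and without strand the reads of such partners cannot be told apart. When each gene was added to its partner, the log2 difference of the sum was 0.30 for *Ccnd1* and LTO1, below that of *Ccnd1* alone. For *Cdk4* and *Tspan31* it was 0.54, above that of *Cdk4* alone. *Tspan31* itself had 115, 124 and 128 FPKM in oEV-EMT and 63.6, 88.6 and 85.9 in oEV-ctrl, without overlap. Its part in the values of *Cdk4* was not tested.

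Of the CDK inhibitors in the set, *Cdkn2c* was the one tested. This gene, which encodes the *Cdk4* and *Cdk6* inhibitor p18 (chr4:109660876-109667189, minus strand), had 2.78, 4.86 and 5.01 FPKM in oEV-EMT and 4.80, 4.66 and 6.65 in oEV-ctrl. The groups overlapped, with oEV-EMT 1 the lowest, and the log2 fold change was -0.30 ± 0.26 (adjusted p = 0.599, limma). After median-of-ratios scaling it was -0.46 and the groups did not overlap. Other inhibitor genes, followed in the wider pathway list, had overlapping groups as well, with log2 fold changes of 0.52 ± 0.31 for *Cdkn1a*, which encodes p21, and 0.06 ± 0.26 for *Cdkn2d*, which encodes p19.

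The genes of the G1/S transition and S phase all lay above the median of all genes, 5 of 5, with a group median 0.35 above it. *Cdk2*, the kinase of S phase (chr10:128697939-128705031, minus strand), had the largest fold change of the 37 genes but also a wide spread. Its values were 62.2, 19.2 and 12.7 FPKM in oEV-EMT and 6.22, 10.0 and 12.2 in oEV-ctrl. Library oEV-EMT 1 stood far above the rest, and the lowest oEV-EMT value exceeded the highest oEV-ctrl value by little. The log2 fold change of 1.35 ± 0.56 (adjusted p = 0.317, limma) was 0.71 without oEV-EMT 1 and 1.81 without oEV-EMT 3. *Ccne1*, cyclin E1, had 21.1, 17.3 and 16.5 FPKM in oEV-EMT and 9.09, 8.09 and 16.9 in oEV-ctrl. Library oEV-ctrl 3 reached the oEV-EMT values, so the groups overlapped, with a log2 fold change of 0.70 ± 0.28 (adjusted p = 0.275, limma).

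*Ccne2*, cyclin E2 (chr4:11191351-11204779, plus strand), had 9.57, 9.38 and 12.8 FPKM in oEV-EMT and 5.68, 7.90 and 7.71 in oEV-ctrl, without overlap and a log2 fold change of 0.52 ± 0.23 (adjusted p = 0.321, limma). It shares 17.4% of its exon bases with *Ints8* on the opposite strand, and the sum of both differed by 0.28. *Ccna2*, cyclin A2, which serves S phase and mitotic entry alike, was the most abundant of the group at 41.3, 46.5 and 46.2 FPKM in oEV-EMT and 32.3, 36.7 and 42.3 in oEV-ctrl. The groups overlapped, and its log2 fold change of 0.27 ± 0.20 was 0.07 after median-of-ratios scaling. It shares 12.5% of its exon bases with *Exosc9*, and the sum of both differed by 0.20. *Cdc25a*, a phosphatase that removes inhibitory phosphates from CDKs, was uneven in both groups, with 0.954 to 5.34 FPKM in oEV-EMT and 0.570 to 2.77 in oEV-ctrl, and its log2 fold change of 0.52 ± 0.53 was -0.00299 without oEV-EMT 2.

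**Figure D4:**
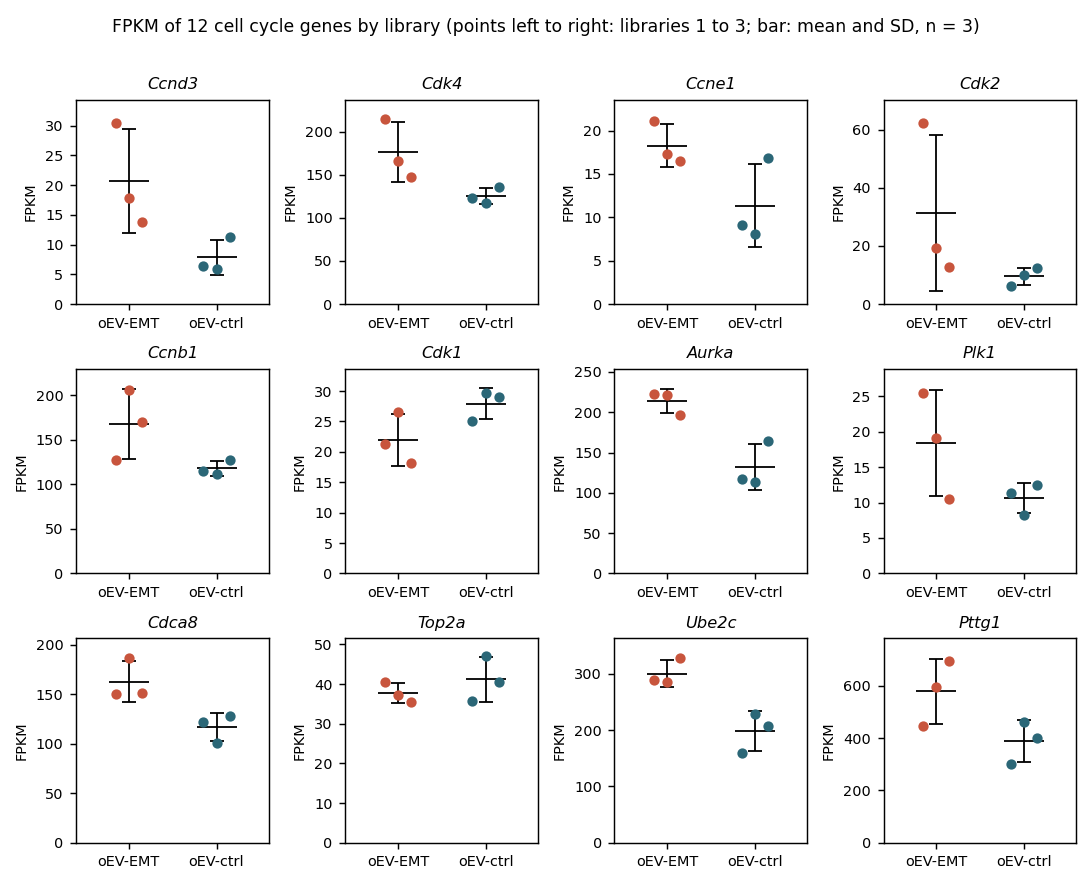
FPKM of 12 cell cycle genes in each library (points from left to right are libraries 1 to 3 of a group; bars show the mean and SD, n = 3), each panel with its own axis from 0. *Ccnd3*, *Cdk4*, *Cdk2*, *Aurka*, *Cdca8* and *Ube2c* show no overlap between the groups, whereas *Cdk1* and *Top2a* have the lower mean in oEV-EMT.

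At mitotic entry, the B-type cyclins and their kinase had fold changes of opposite sign, none past the thresholds. Of the 9 genes of this group 8 were tested, and 5 lay above the median of all genes, with a group median 0.12 above it. *Ccnb1*, cyclin B1, had 127, 206 and 170 FPKM in oEV-EMT and 115, 111 and 127 in oEV-ctrl, with oEV-EMT 1 at the level of the highest oEV-ctrl library and a log2 fold change of 0.48 ± 0.22 (adjusted p = 0.328, limma). *Ccnb2*, cyclin B2, had 113, 172 and 124 FPKM in oEV-EMT and 93.1, 105 and 122 in oEV-ctrl, also with overlap, and a log2 fold change of 0.34 ± 0.22. *Cdk1* (chr10:69335146-69352938, minus strand), the kinase that both cyclins activate, had 21.3, 26.5 and 18.1 FPKM in oEV-EMT and 25.0, 29.7 and 29.0 in oEV-ctrl. The highest oEV-EMT library lay above the lowest oEV-ctrl library, and the log2 fold change was -0.34 ± 0.22 (adjusted p = 0.473, limma). After median-of-ratios scaling the fold change of *Cdk1* was -0.54, and the groups did not overlap. Sequence shared with *Ccnb1-ps*, Gm12856 and Gm8416 covers 23.4% of the 50-base stretches of *Ccnb1*, which held 85.2% of the summed FPKM of the 4 genes, and the sum differed by 0.47.

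*Aurka*, Aurora kinase A, which matures centrosomes and the spindle (chr2:172356190-172370535, minus strand), had 223, 221 and 196 FPKM in oEV-EMT and 117, 113 and 164 in oEV-ctrl, a mean of 214 ± 14.9 against 132 ± 28.5 (SD, n = 3). The groups did not overlap under either scaling. The log2 fold change was 0.71 ± 0.21 (adjusted p = 0.175, limma) and stayed between 0.61 and 0.88 when any 1 library was left out. *Plk1*, polo-like kinase 1, had 25.4, 19.1 and 10.5 FPKM in oEV-EMT and 11.3, 8.30 and 12.4 in oEV-ctrl. Library oEV-EMT 3 fell among the oEV-ctrl values, and the log2 fold change was 0.66 ± 0.31 (adjusted p = 0.341, limma). The remaining genes of mitotic entry differed less. *Cdc25c*, the phosphatase that activates *Cdk1*, differed by 0.25 ± 0.23 on the log2 scale, *Wee1*, the kinase that restrains it, by -0.06 ± 0.23, and *Nek2*, a centrosome kinase, by -0.06 ± 0.21, all with overlapping groups.

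The genes of chromosome structure and the proliferation marker *Mki67* all lay below the median of all genes, 4 of 4, with a group median 0.31 below it. *Top2a*, which untangles sister chromatids and is the most abundant of them (chr11:98992943-99024189, minus strand), had 40.6, 37.2 and 35.5 FPKM in oEV-EMT and 35.8, 47.1 and 40.6 in oEV-ctrl. *Mki67*, which coats mitotic chromosomes (chr7:135689784-135716361, minus strand), had 7.78, 6.14 and 5.19 FPKM in oEV-EMT and 7.09, 6.59 and 8.08 in oEV-ctrl. As deposited the groups overlapped in both, and the log2 fold changes were -0.11 ± 0.20 and -0.17 ± 0.23 (adjusted p = 0.810 and 0.741, limma). *Smc2* and *Smc4*, the core subunits of condensin, differed by -0.15 ± 0.21 and 0.02 ± 0.19, also with overlap. After median-of-ratios scaling, *Top2a* (-0.31), *Smc2* (-0.34) and *Mki67* (-0.35) were lower in oEV-EMT without overlap and *Smc4* was at -0.17. The adjusted p-values as deposited (limma) were at least 0.741 for all 4. The longest transcripts of these 4 genes span 4316 to 10061 bases. With an offset for transcript length, the fold changes were -0.18 for *Top2a*, -0.21 for *Smc2*, -0.16 for *Mki67* and -0.10 for *Smc4*. The part of transcript length was not tested.

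Spindle motors and the chromosomal passenger complex had a group median 0.14 above that of all genes, with 3 of 5 above it, and the groups did not overlap in these 3. *Cdca8*, borealin, which targets the passenger complex to centromeres (chr4:124918465-124939311, minus strand), had 150, 187 and 151 FPKM in oEV-EMT and 122, 101 and 128 in oEV-ctrl, and a log2 fold change of 0.47 ± 0.20 (adjusted p = 0.293, limma). *Aurkb*, the kinase of that complex (chr11:69045647-69051664, plus strand), had 37.0, 31.3 and 30.4 FPKM in oEV-EMT and 25.4, 21.8 and 23.3 in oEV-ctrl, and a log2 fold change of 0.47 ± 0.20 (adjusted p = 0.301, limma). *Kif11*, the motor that pushes spindle poles apart (chr19:37376403-37421859, plus strand), had 7.43, 6.14 and 6.81 FPKM in oEV-EMT and 4.82, 5.49 and 5.56 in oEV-ctrl, and a smaller log2 fold change of 0.31 ± 0.21 (adjusted p = 0.503, limma). *Aurkb* alone of the 3 kept its groups apart after median-of-ratios scaling. *Incenp*, the scaffold of the passenger complex, was uneven in both groups, with 4.29, 2.23 and 1.07 FPKM in oEV-EMT, 5.16, 1.27 and 2.03 in oEV-ctrl and a log2 fold change of -0.09 ± 0.43. *Kif23*, a motor of cytokinesis, differed by 0.14 ± 0.23 as deposited and by -0.05 after median-of-ratios scaling.

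The spindle checkpoint genes differed little from the table as a whole, with a group median 0.09 above that of all genes and 4 of 5 above it. *Bub1*, a checkpoint kinase of the kinetochore (chr2:127801122-127831865, minus strand), had 17.8, 19.3 and 20.9 FPKM in oEV-EMT and 14.3, 14.6 and 14.4 in oEV-ctrl. The groups did not overlap and the oEV-ctrl libraries lay close together, at 14.5 ± 0.150 (SD, n = 3), with a log2 fold change of 0.39 ± 0.20 (adjusted p = 0.372, limma). *Bub3*, which brings *Bub1* and *Bub1b* products to kinetochores, was the most abundant, with 98.2, 69.3 and 52.2 FPKM in oEV-EMT and 44.8, 41.0 and 64.5 in oEV-ctrl. The groups overlapped, and the log2 fold change of 0.52 ± 0.27 (adjusted p = 0.386, limma) was 0.29 without oEV-EMT 1. *Bub1b*, *Mad2l1* and *Ttk*, which encode BubR1, Mad2 and the kinase Mps1, differed by 0.26 ± 0.21, 0.25 ± 0.27 and 0.13 ± 0.24, all with overlapping groups, and *Ttk* was at -0.05 after median-of-ratios scaling.

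*Pttg1*, *Ube2c* and *Cdc20* were among the most abundant genes, and all 5 genes of anaphase and mitotic exit lay above the median of all genes, with a group median 0.26 above it. *Ube2c*, which loads ubiquitin onto APC/C substrates (chr2:164769898-164778822, plus strand), had 289, 285 and 327 FPKM in oEV-EMT and 160, 228 and 207 in oEV-ctrl, a mean of 300 ± 23.5 against 198 ± 34.9 (SD, n = 3). The groups did not overlap as deposited, and the log2 fold change was 0.61 ± 0.20 (adjusted p = 0.211, limma). After median-of-ratios scaling its fold change was 0.41 and the groups overlapped. *Pttg1* (chr11:43420250-43426251, minus strand) had 446, 597 and 693 FPKM in oEV-EMT and 302, 462 and 399 in oEV-ctrl, with oEV-EMT 1 below oEV-ctrl 2 and a log2 fold change of 0.58 ± 0.23 (adjusted p = 0.277, limma). *Espl1*, separase, the protease that *Pttg1* protein holds inactive, was rare by comparison at 1.17 to 2.64 FPKM, and differed by 0.30 ± 0.23. Of the APC/C activators, *Cdc20* had 104, 186 and 106 FPKM in oEV-EMT and 108, 72.6 and 106 in oEV-ctrl, so that its log2 fold change of 0.43 ± 0.27 was 0.16 without oEV-EMT 2. *Fzr1*, the activator of late mitosis and G1, differed by 0.26 ± 0.23 with overlapping groups.

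Summed over the 40 genes, the FPKM of oEV-EMT libraries were 2274, 2539 and 2350, and those of oEV-ctrl libraries 1517, 1719 and 1862. The sum is carried by *Pttg1*, *Ube2c* and *Aurka* and moves with the scaling of each library.

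Ratios between genes within a library do not depend on that scaling. They are not freed of differences between libraries that go with transcript length, whose part was not tested. Among the 37 tested genes there are 666 pairs, which share genes and are no independent observations, and in 184 of them (27.6%) the ratio separated the oEV-EMT from the oEV-ctrl libraries. Over all pairs of the 11898 tested genes above 0 in every library, the share was 19.2%. Counts are therefore given beside the share of these genes relative to which the same gene separated the groups. *Cdk1* was lower in oEV-EMT relative to 26 of its 36 partners (72.2%), against 40.9% of the tested genes. *Smc2* was lower relative to 21 (58.3%, against 29.7%), *Mki67* to 17 (47.2%, against 30.5%), *Cdkn2c* to 17 (47.2%, against 29.7%) and *Top2a* to 15 (41.7%, against 23.8%). *Nek2* was lower relative to 13 (36.1%, against 19.1%), *Wee1* to 12 (33.3%, against 19.6%) and *Smc4* to 12 (33.3%, against 15.7%), and none of these 8 was higher relative to any partner. On the other side, *Ccnd1* was higher relative to 25 partners (69.4%, against 64.7% of the tested genes), *Ccnd3* to 23 (63.9%, against 63.0%), *Cdk2* to 16 (44.4%, against 42.6%), *Aurka* to 12 (33.3%, against 36.2%) and *Ube2c* to 10 (27.8%, against 27.2%). For these 5 genes the share among partners was thus near that over all tested genes. The counts for *Ccnd1* rest on levels of 0.515 to 2.48 FPKM.

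Some of these pairs join genes whose products act together or are related, such as a pair of cyclins or of kinases. *Ccnb1* over *Cdk1* was 5.97, 7.79 and 9.36 in oEV-EMT and 4.58, 3.74 and 4.39 in oEV-ctrl, a mean of 7.71 ± 1.70 against 4.24 ± 0.443 (SD, n = 3). *Cdk2* over *Cdk1* was 2.92, 0.725 and 0.698 against 0.249, 0.337 and 0.422, with oEV-EMT 1 far above the others. Of 11 such ratios picked for listing, these 2 separated the groups. In the other 9, among them *Ccnb1* over *Ccnb2*, *Aurka* over *Aurkb*, *Ccne1* over *Ccne2*, *Cdc20* over *Fzr1* and *Pttg1* over *Espl1*, the groups overlapped. The ratios were chosen after the values had been seen and are given as a description, with no test. They leave out other partners whose ratio also separated the groups, such as *Ccnb2* or *Ccna2* over *Cdk1* and *Ccnd3* over *Cdk4*. The share among the listed ratios therefore does not stand for all such pairs.

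Beyond these genes, 125 others of the cell cycle machinery were followed as a list, of which 114 were tested. None passed both thresholds. With an unadjusted p of at most 0.05 (limma), 23 were higher in oEV-EMT (20.2%, against 12.8% of all tested genes) and 0 lower, and after median-of-ratios scaling 13 were higher and 5 lower (11.4% and 4.39%, against 6.43% and 6.4% of all tested genes). The groups did not overlap in 30 higher and 2 lower genes as deposited (26.3% and 1.75%, against 18.1% and 4.34%), and in 17 and 15 after scaling (14.9% and 13.2%, against 9.85% and 10.3%). Medians relative to all genes were 0.35 for the DREAM and mitotic transcription genes (8 tested), 0.20 for kinetochore and centromere genes (24), 0.11 for spindle, centrosome and cytokinesis genes (27), 0.09 for condensin and cohesin (15), 0.04 for the APC/C (15), -0.08 for other CDK inhibitors and regulators (18) and -0.11 for pocket proteins and E2F (7).

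The APC/C gave the smallest p-value of the list. *Anapc11*, its catalytic RING subunit, had 245, 191 and 212 FPKM in oEV-EMT and 88.1, 111 and 120 in oEV-ctrl, giving a log2 fold change of 1.02 ± 0.20 (adjusted p = 0.105, limma), and *Anapc13* differed by -0.26 ± 0.20. *Lin37*, a MuvB subunit of DREAM, had 36.9, 50.7 and 37.0 FPKM in oEV-EMT and 17.9, 20.9 and 26.0 in oEV-ctrl and a log2 fold change of 0.91 ± 0.23 (adjusted p = 0.158, limma). Both kept their groups apart after median-of-ratios scaling, with fold changes of 0.82 and 0.72.

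Other genes with the smallest p-value in their list and direction were *Cks1b*, a CDK subunit (0.59 ± 0.20), *Mad2l2* (0.71 ± 0.21), *Ensa*, an inhibitor of the phosphatase that opposes *Cdk1* (0.68 ± 0.20), the condensin gene *Ncaph* (0.66 ± 0.22) and *E2f4*, the E2F of DREAM (0.84 ± 0.31). On the lower side were the cohesin gene *Rad21* (-0.32 ± 0.19), the kinesin gene *Kif14* (-0.26 ± 0.19), *Cenpk* (-0.36 ± 0.23), *Fbxw7*, which targets cyclin E for destruction (-0.45 ± 0.27), *E2f8* (-0.16 ± 0.25) and *Mycn* (-0.41 ± 0.53). *Rad21* and *Kif14* were the 2 genes of the list with lower values in oEV-EMT without overlap as deposited, at 38.0 to 44.2 against 47.1 to 55.1 FPKM and 1.09 to 1.32 against 1.36 to 1.87 FPKM.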

How the data were processed

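Polyadenylated RNA of pools of 10 blastocysts was sequenced, 3 libraries per group. The submitters' processing notes name StringTie and the build mm10, and the aligner and versions are not given in the sources used here. The authors deposited a table of 55774 genes, 287 of them unannotated. The study's methods describe TPM, but library sums differ and exceed 1000000, so the deposited values were taken as FPKM, which are normalised to transcript length and library and keep no read totals. Relative depth was taken as the most frequent ratio of values below 0.5 FPKM between a library and oEV-EMT 1. Coordinates and exons are from GENCODE M21 (GRCm38), which matched 55141 identifiers.

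Genes that reached 1 FPKM in 3 or more libraries were fitted as log2(FPKM + 1), on which fold changes of low genes are understated, with limma 3.58.1 in R 4.3.3 (trended, robust, no covariate), p-values adjusted by Benjamini-Hochberg over all 11924 genes, and called where the adjusted p-value was 0.05 or less and the log2 fold change reached 1 in either direction. The procedure was run on simulated data with independent noise for each gene. These data held no differences between libraries in scaling or length, so they cannot show how the fit handles those. The 40 genes, the phase groups, the other lists and the motifs were chosen with earlier results of these data known. Values of each library are given for genes without overlap between the groups and, in each phase group, for the gene with the highest mean and that with the largest fold change relative to all genes, and in each pathway list the gene with the smallest p-value in each direction is named. *Cdk1*, *Ccnb1*, *Ccnb2*, *Ccne1*, *Plk1*, *Cdc20*, *Incenp*, *Cdkn1a*, *Cdkn2d*, the single markers and the ratios were added after their values were seen. Genes sharing at least 10% of their 50-base stretches were summed. Alternatives covered the pseudocount, filter, scaling, variance model, library weights, a transcript length offset, a replicate block and fits without each library in turn. Plots used matplotlib 3.10.9 (Python 3.11.15).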

Additional observations from a re-analysis of the deposited data

How the results depend on the processing

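No alternative called any of the 40 genes, but the counts of genes with p at most 0.05 before adjustment and of genes without overlap moved with the scaling and with single libraries. The causes were not tested. Over all tested genes the number past both thresholds was 0 in the values as deposited, 104 with array quality weights, and 0 to 17 when a library was left out, the highest without oEV-ctrl 3. Of the cell cycle genes, 11 were higher with an unadjusted p of at most 0.05, and this count was 3 under median-of-ratios scaling, 3 under upper quartile scaling, 4 with a transcript length offset, 6 with no filter (where more genes enter the fit) and 4 to 11 when a library was left out. The shares of all tested genes were 12.8% as deposited, 6.43%, 4.61% and 6.6% under the 3 former settings, 5.51% with no filter and 7.88% to 13.9% when a library was left out. The count lower was 1, 1 and 2 under the 3 former settings, where 6.4%, 8.08% and 5.96% of all genes stood. Without overlap, 11 were higher as deposited, 6, 4 and 5 under those settings, and 11 to 19 when a library was left out, with 19 without oEV-EMT 3 or without oEV-ctrl 3. The shares of all genes were 18.1% as deposited, 9.85%, 7.59% and 9.8%, and 21.8% to 30.6% when a library was left out. Those lower were 5, 6 and 2, and 0 to 3 when a library was left out, which leaves fewer values to overlap, where the shares of all genes were 10.3%, 12.5% and 9.78%, and 5.89% to 12.6%.

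Of the 114 other pathway genes tested, 23 were higher with an unadjusted p of at most 0.05 as deposited, and 13, 4 and 7 under the 3 settings. When a library was left out, 13 to 29 were higher, with 13 without oEV-ctrl 2. The shares of all tested genes were 12.8% as deposited, 6.43%, 4.61% and 6.6% under the 3 settings, and 7.88% to 13.9% when a library was left out. Those lower were 5, 10 and 4, and 0 to 1 when a library was left out. Here the shares of all tested genes were 6.4%, 8.08% and 5.96%, and 1.69% to 4.84%.

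Phase group medians relative to all genes kept their sign under every alternative that moved them. For G1 the median was 0.63 with a pseudocount of 0.1 and 0.67 with a mean FPKM of at least 5. For G1/S and S phase it was 0.23 to 0.72 when a library was left out, the highest without oEV-ctrl 3. For chromosome structure it was -0.16 with no filter, -0.35 with upper quartile scaling, -0.18 with the length offset and -0.35 to -0.24 when a library was left out. For the spindle it was 0.29 with no filter, 0.054 with array quality weights and 0.092 to 0.21 when a library was left out, the highest without oEV-EMT 2. For anaphase it was 0.41 with no filter, 0.37 with array quality weights and 0.11 to 0.43 when a library was left out, the lowest without oEV-ctrl 2 and the highest without oEV-EMT 1. For all cell cycle genes it was 0.26 with no filter.

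The log2 fold changes of 9 genes changed sign under some alternative. *Cdk6* was at -0.043 with a pseudocount of 0.1, -0.10 with median-of-ratios scaling, -0.13 with upper quartile scaling, -0.23 with array quality weights, and -0.16 to 0.26 when a library was left out. *Smc4* was at -0.17, -0.24 and -0.10 with median-of-ratios scaling, upper quartile scaling and the length offset, *Kif23* at -0.049, -0.11 and -0.049, and *Ttk* at -0.045, -0.11 and -0.10. *Mad2l1* was at -0.0059 with upper quartile scaling. Scaled to a sum of 1000000, *Wee1* was at 0.026 and *Nek2* at 0.0048. When a library was left out, *Smc4* ranged from -0.017 to 0.077, *Ttk* from -0.036 to 0.26, *Mad2l1* from -0.013 to 0.40, *Wee1* from -0.23 to 0.084, *Nek2* from -0.15 to 0.015, *Incenp* from -0.43 to 0.32 and *Cdc25a* from -0.0030 to 0.94. In 556 further comparisons of single genes the fold change kept its sign, and in 29 it did not. Of the comparisons of counts and medians, 210 stayed close and 55 moved. Fold changes and their medians cannot change with the variance model or the replicate block, so part of these comparisons was fixed in advance.

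Libraries with the same replicate number did not deviate together from their group means (correlations of 0.119, -0.0442 and 0.0388), so the numbers were not taken to pair them. With a replicate block, 21 of all tested genes passed both thresholds, 6 cell cycle genes were higher with an unadjusted p of at most 0.05 (11.2% of all tested genes) and 0 were called. FPKM without read totals limit what can be said of genes near 1 FPKM, such as *Ccnd1* and *Cdk6*.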
